A study of Mus musculus with 3 samples.

Results

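The genes described here encode 5 connexins (Gja1, Gjb2, Gjb6, Gjc1, Gjc3), 2 pannexins (Panx1, Panx2) and the junction scaffold ZO-1 (Tjp1). They were taken by gene symbol, with no threshold on a measured value, and all 8 had a row among the 19471 genes of the table. Poly(A) RNA was sequenced from 1 group of 3 libraries, replicates 1, 2 and 3, each from the cortex of a different wild-type mouse pup. The titles and age labels give postnatal day 1 (P1), whereas the sample descriptions carry the name P0. The cells were labelled astrocytes and kept in culture for 7 days. All sample descriptions also carry the tag Ctrl, but the labels name no treatment, Cre line or transgene. Reads recovered from the deposited values, summed over the genes of the table, came to 9858626 to 25128038 per library. The labels call the libraries biological replicates.

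Connexins span the membrane, assemble into hexameric hemichannels and dock with those of a neighbouring cell to form gap junctions, which pass ions and small molecules. Astrocytes are known for a coupled network that carries potassium, glucose products and calcium signals, built in the adult cortex mainly from connexin 43 (Gja1) and connexin 30 (Gjb6), the latter of which appears late in postnatal development. Pannexins are related in topology but mostly act as single-membrane channels that release ATP, and ZO-1 binds the C-terminal tail of connexin 43 and limits the size of junction plaques.

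With 1 group there is no treated or mutant sample to compare, so genes were compared within libraries and the libraries with each other. The deposited values are read counts divided by a size factor for each library, here called normalized counts, and they are given as mean ± SD over the 3 libraries. Levels of the members and of the pathway genes were compared with each other per kilobase of exon. Ranks among all genes by count, read numbers and the highest and lowest marker of each cell type are by count with no division by length, and do not order those genes by level. A mean of 10 or more was counted as detected. Of the members, 5 reached it (Gja1, Tjp1, Gjc1, Panx1 and Panx2) and 3 did not (Gjb2, Gjb6 and Gjc3). Among all 19471 genes, 13941 reached it, so detection is common and the counts of detected genes below are to be read beside that.

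The genes chosen here are the abundant connexin of the cultures and 2 low ones that lie 18601 bases apart on chromosome 14. The stretch upstream of the start of these 3 genes is shown. Each is the 250 bases before the RefSeq start (GRCm38.p6), written 5′ to 3′ on the gene's strand, with CpG dinucleotides in capitals. They are chr10:56377050-56377299 on the plus strand for Gja1, chr14:57104703-57104952 on the minus strand for Gjb2 and chr14:57133612-57133861 on the minus strand for Gjb6.
Gja1: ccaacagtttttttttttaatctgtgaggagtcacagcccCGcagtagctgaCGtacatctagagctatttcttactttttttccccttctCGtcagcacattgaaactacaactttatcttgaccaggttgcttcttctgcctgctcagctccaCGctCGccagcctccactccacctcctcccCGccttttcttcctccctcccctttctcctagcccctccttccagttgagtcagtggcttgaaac
Gjb2: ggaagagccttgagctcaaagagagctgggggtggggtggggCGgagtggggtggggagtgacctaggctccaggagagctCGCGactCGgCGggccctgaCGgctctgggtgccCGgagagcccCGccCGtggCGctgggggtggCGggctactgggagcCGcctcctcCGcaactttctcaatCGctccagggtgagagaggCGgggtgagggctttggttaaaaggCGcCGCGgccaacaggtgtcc
Gjb6: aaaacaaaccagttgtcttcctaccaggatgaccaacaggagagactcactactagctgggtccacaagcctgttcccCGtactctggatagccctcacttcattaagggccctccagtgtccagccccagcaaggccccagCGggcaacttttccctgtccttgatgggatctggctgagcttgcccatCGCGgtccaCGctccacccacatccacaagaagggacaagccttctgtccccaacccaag

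Gja1 encodes connexin 43 and was the connexin with by far the most reads. The gene (ENSMUSG00000050953) spans chr10:56377330-56402513, plus strand, in mm10, the build of all positions here, and each of its annotated coding sequences sits in 1 exon. Replicates 1, 2 and 3 gave normalized counts of 5142, 5360 and 4863. The mean was 5122 ± 249 (SD, n = 3), resting on 21752 reads. The 3 libraries lay close together, and the mean ranked 284 of all genes. Gja1 took 0.0440%, 0.0452% and 0.0413% of the reads over all genes of the table in replicates 1, 2 and 3.

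The level of Gja1 per kilobase depended on the gene model. All 8 annotated transcripts together cover 10257 bases of merged exon, but the 6 protein-coding ones cover 3749 and the longest single transcript has 3889. By merged exons Gja1 stood at 499 ± 24.3 normalized counts per kilobase (SD, n = 3), which ranked 1171 of 19366 genes with a length. By the exons of protein-coding transcripts it stood at 1366 ± 66.4, which ranked 470. Merged exons were the length chosen for the tests, and the length of protein-coding transcripts was added after the data were seen; both are given where they differ.

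Tjp1, which encodes ZO-1, was the second abundant member. The gene (ENSMUSG00000030516) spans chr7:65296165-65527781, minus strand, and its longest transcript has 28 exons. Replicates 1, 2 and 3 gave normalized counts of 3825, 4386 and 4542, which average 4251 ± 377 (SD, n = 3). Replicate 1 was the lowest for Tjp1 and replicate 3 the highest, whereas for Gja1 replicate 3 was the lowest.

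Whether Tjp1 or Gja1 had the higher level per length depended on the exons counted. Over merged exons Tjp1 stood at 544 ± 48.2 per kilobase, a log2 difference from Gja1 of 0.12 ± 0.09 (SE; adjusted p = 0.204, limma on within-library differences), and the sign differed between libraries. With the exons of protein-coding transcripts it stood at 576 ± 51.1, below Gja1 in 3 of 3 libraries (log2 difference -1.25, adjusted p = 2.84e-07, limma). Over the longest transcript the difference was -1.13 (adjusted p = 5.63e-07, limma).

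Gjc1 encodes connexin 45, a connexin of the developing heart and vessels that is also made by some neurons. The gene (ENSMUSG00000034520) spans chr11:102799579-102819700, minus strand. Replicates 1, 2 and 3 gave normalized counts of 198, 198 and 243, which average 213 ± 26.0 (SD, n = 3) over 865 reads. Replicate 3 was above the other two, which were nearly equal. Over merged exons Gjc1 stood at 42.5 ± 5.20 per kilobase, 11.7-fold lower than Gja1 (log2 difference -3.55 ± 0.13 SE, adjusted p = 7.9e-09, limma). The difference was -4.13 over the exons of protein-coding transcripts.

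Gjb6 encodes connexin 30, the second connexin of mature astrocytes, and it was close to the limit of counting. The gene (ENSMUSG00000040055) spans chr14:57123303-57133611, minus strand. It gave 3 reads in replicate 1, 6 in replicate 2 and 3 in replicate 3, normalized counts of 2.44, 2.83 and 3.59. Its mean was 2.95 ± 0.583 (SD, n = 3). Over all libraries Gja1 exceeded it 473-fold per kilobase of merged exon, with a 95% exact interval of 270 to 915 that covers counting error only, and 1062-fold over the exons of protein-coding transcripts (608 to 2055).

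Gjb2 encodes connexin 26, which is known from the leptomeninges and the inner ear and has been described in some astrocytes. The gene (ENSMUSG00000046352) spans chr14:57098600-57104702, 18601 bases from Gjb6 and on the same strand. It gave 9, 11 and 4 reads in replicates 1, 2 and 3, normalized counts of 7.32, 5.19 and 4.78, with a mean of 5.76 ± 1.36 (SD, n = 3). Gja1 exceeded it 213-fold per kilobase of merged exon (143 to 332, exact counting interval) and 582-fold over the exons of protein-coding transcripts (391 to 908). Of 6 markers of meninges and fibroblasts, 4 had a mean of 10 or more. The highest was Ogn, a proteoglycan gene, at 1658 ± 220, and the lowest was Slc6a13, a GABA transporter gene, at 0.954 ± 1.27. Their summed normalized count was 3101, 3775 and 3146 in replicates 1, 2 and 3, and its part in the level of Gjb2 was not tested.

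Gjc3 encodes connexin 29, a connexin of myelinating glia that is also made by oligodendrocyte precursors. The gene (ENSMUSG00000056966) spans chr5:137953461-137963098, minus strand. It gave 2 reads in replicate 1, 2 in replicate 2 and 0 in replicate 3, normalized counts of 1.63, 0.943 and 0, and a count of 0 allows up to 3 reads, or 3.59, in replicate 3. Gja3, a connexin of the eye lens, gave 7 reads over the 3 libraries. Of 8 oligodendrocyte lineage markers listed, 6 had a row in the table, and 5 of these 6 reached a mean of 10. The highest was the receptor gene Pdgfra at 390 ± 91.5 and the lowest the myelin gene Mag at 4.85 ± 2.87. The 6 summed to 795, 849 and 556 in replicates 1, 2 and 3. None of the 6 was at 0 reads over the 3 libraries, which says nothing of the listed markers with no row. The level of Gjc3 rests on 4 reads, which makes it uncertain. Of its 50-base stretches, 1.44% were shared with transcripts of other genes, and whether such reads were counted is not known.

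Gjb2 and Gjb6 lie in a connexin cluster whose members were all low. Gja3, 40500 bases from Gjb2, had a mean of 1.33 ± 1.21, and the gene Gm4491, 7804 bases from Gjb2, 2.49 ± 2.05. Only protein-coding genes were searched. The others of the table within 200 kb of Gjb2 were Zmym2, a zinc finger gene, at 614 ± 88.2 and Cryl1, a crystallin-related gene, at 256 ± 39.2. So the 4 protein-coding genes nearest together on this stretch were low and the 2 farther ones were detected.

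**Figure D1:**
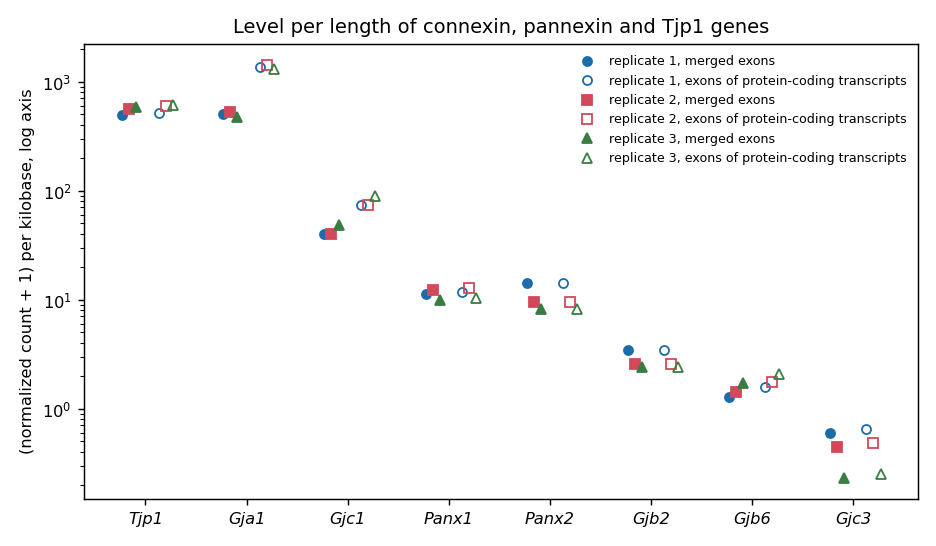
Normalized count plus 1 per kilobase on a log axis for each member, 1 point per library, over merged exons (filled) and over the exons of protein-coding transcripts (open). Tjp1 and Gja1 overlap over merged exons, Gja1 lies above Tjp1 over protein-coding transcripts, and Gjb2, Gjb6 and Gjc3 lie below all others.

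Among connexin genes, Gja1 gave nearly all reads. Its share of the reads of 14 connexin genes was 95.4%, 95.9% and 94.7% in replicates 1, 2 and 3, averaging 95.3% ± 0.585 (SD, n = 3). The 95% Wilson intervals, which cover counting error only, were 94.8% to 95.8%, 95.5% to 96.2% and 94.0% to 95.3%. Per kilobase of merged exon the share was 90.1% ± 1.02, and over the exons of protein-coding transcripts 93.8% ± 0.779. Gjc1 gave 3.67%, 3.53% and 4.73% of the connexin reads in replicates 1, 2 and 3, with the highest share in replicate 3.

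The other 12 connexin genes together gave 0.980%, 0.607% and 0.582% of the connexin reads in replicates 1, 2 and 3. The only one of them with a mean of 10 or more was Gja5, which encodes connexin 40 of the arterial endothelium and atrium, at 24.4, 10.4 and 14.3 in replicates 1, 2 and 3. Replicate 1 was the highest for Gja5. Endothelial markers were also low. Of 5 listed, 4 had a row in the table, and 2 of these 4 reached a mean of 10. The receptor gene Flt1 was the highest of these at 90.6 ± 18.9 and Tek, another receptor gene, the lowest at 1.68 ± 0.664. Their sum was 120, 121 and 88.5 in replicates 1, 2 and 3, and its part in the counts of Gja5 was not tested. Gja4, Gja6, Gjb5 and Gjd4 each gave 4 to 6 reads over the 3 libraries. Panx3 was not analysed here.

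**Figure D2:**
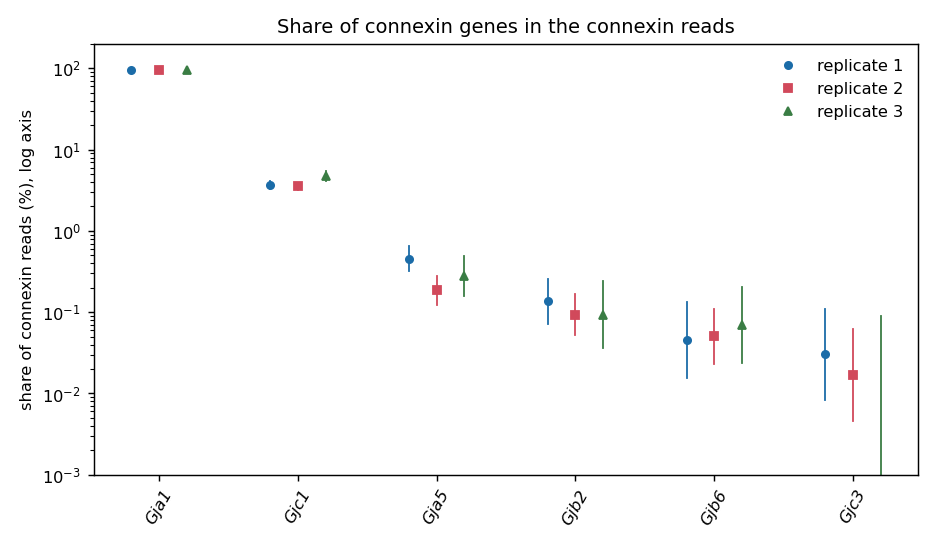
Share of the 5 connexin members and Gja5 in the connexin reads of a library, in percent on a log axis, with 95% Wilson intervals; a library with 0 reads is drawn as its interval without a point. Gja1 lies at 94.7% to 95.9% and Gjc1 at 3.53% to 4.73%, and Gja5, Gjb2, Gjb6 and Gjc3 lie under 1%.

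The pannexins were detected at low and similar levels. Panx1, the widely expressed pannexin (ENSMUSG00000031934; chr9:15002128-15045478, minus strand), had normalized counts of 67.5, 72.2 and 58.6 in replicates 1, 2 and 3, averaging 66.1 ± 6.90 (SD, n = 3). Panx2, which is known mainly from neurons and intracellular membranes, spans chr15:89059734-89073567, plus strand (ENSMUSG00000058441). Its normalized counts were 49.6, 33.0 and 28.7 in replicates 1, 2 and 3, averaging 37.1 ± 11.0. Replicate 1 stood above the other libraries for Panx2, but not for Panx1.

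Per kilobase of merged exon Panx1 stood at 11.0 ± 1.14 and Panx2 at 10.3 ± 3.07. Against Gja1 the log2 differences were -5.49 ± 0.18 (SE, adjusted p = 7.59e-09, limma) for Panx1 and -5.60 ± 0.21 (adjusted p = 8.95e-09, limma) for Panx2. Neuronal markers were summed beside Panx2. Of 7, 4 had a mean of 10 or more, the highest Stmn2, a tubulin-binding protein gene, at 669 ± 129 and the lowest Slc17a7, a vesicular glutamate transporter gene, at 0.786 ± 1.36. The sum was 1148, 765 and 1173 in replicates 1, 2 and 3, and its part in the level of Panx2 was not tested.

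Of the 6 members that passed a mean of 1 and could be tested against Gja1, 5 were lower and none was higher (limma, adjusted p under 0.05; merged exons). Gjb2 and Gjb6 had fitted differences of -7.49 and -8.41, which depend on the pseudocount of 1 at such counts, and Gjc3 did not pass. Among all 17808 genes tested, 92.3% were called lower than Gja1 and 5.54% higher, so a call below it is common. By the exons of protein-coding transcripts 6 of 6 members were lower, against 96.7% of all genes, with 2.13% of all genes higher. The edgeR quasi-likelihood test of recovered reads also called 5 members lower and none higher. Without adjustment limma too called no member higher.

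The order of levels per kilobase of merged exon was Tjp1, Gja1, Gjc1, Panx1, Panx2, Gjb2, Gjb6 and Gjc3. Neighbours were taken to differ when the within-library log2 difference exceeded 2 SD and had the same sign in all 3 libraries, since an exact sign-flip test over 3 libraries cannot give a p below 0.25. Tjp1 and Gja1 did not differ beyond that spread (0.12 ± 0.16, SD, n = 3), nor did Panx1 and Panx2 (0.10 ± 0.36) or Gjb2 and Gjb6 (0.92 ± 0.47). Gja1 lay 3.55 ± 0.24 above Gjc1, Gjc1 lay 1.94 ± 0.32 above Panx1 and Panx2 lay 1.89 ± 0.12 above Gjb2. Gjb6 lay 1.89 ± 0.92 above Gjc3, and that difference was no longer beyond the spread without replicate 2 (2.00 ± 1.28) or with a pseudocount of 0.5 (2.27 ± 1.32). With a replicate left out, the SD and the sign rested on the 2 libraries that remained, which is a weaker rule. Without replicate 1, Panx1 lay 0.31 ± 0.07 above Panx2. Gjb2 lay beyond the spread above Gjb6 without replicate 1 (0.67 ± 0.25) and without replicate 3 (1.14 ± 0.41). Over all 3 libraries it did so with a pseudocount of 5 (0.58 ± 0.27) and on CPM with TMM factors (0.40 ± 0.16).

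Between the libraries, 3 of the 5 members deep enough to test varied beyond counting error alone (chi-square test of reads, adjusted p under 0.05). That is near the 55.4% of the 13941 genes tested (55.3% with size factors in place of library totals) and is no result about the members. The test takes no account of the usual spread between pups, and deeper genes pass it at smaller differences. They were Tjp1 (adjusted p = 2.64e-14, chi-square test), Gja1 (adjusted p = 1.41e-05, chi-square test) and Panx2 (adjusted p = 0.0331, chi-square test). Gjc1 had an adjusted p of 0.0625 and Panx1 of 0.538 in the same chi-square test. The sizes were small for the abundant members. Tjp1 was at 90.0%, 103% and 107% of its mean in replicates 1, 2 and 3, and Gja1 at 100.4%, 104.7% and 94.95%. Panx2 ranged more widely, at 133.7%, 89.0% and 77.3%.

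The calls changed when a library was left out. Without replicate 1 the adjusted p of Tjp1 was 0.0885 and that of Panx2 0.700, while that of Gjc1 became 0.0395 (chi-square test). Without replicate 2, which leaves the highest and lowest values of Panx2 in place, that of Panx2 was 0.0503, and without replicate 3 that of Gja1 was 0.150 (chi-square test). The SD of log2 values of Gja1 was 0.07, larger than that of 24.4% of the 724 genes with 0.5 to 2 times its mean. For Tjp1 it was 0.13 (58.0% of 954 genes) and for Panx2 0.40 (72.7% of 1946 genes). Other cell types also varied between these libraries: the 6 microglial markers summed to 17910, 13937 and 11551 in replicates 1, 2 and 3, and the part of this in the spread of the members was not tested.

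**Figure D3:**
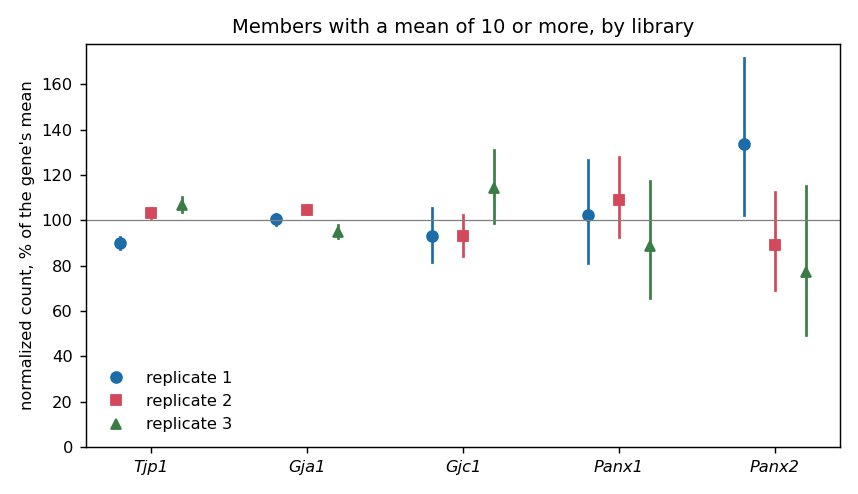
Normalized count of the 5 members with a mean of 10 or more in each library, as percent of the gene's mean, with 95% exact Poisson intervals for counting error. Tjp1 is lowest in replicate 1 at 90.0%, Gja1 lies between 94.95% and 104.7%, and Panx2 is highest in replicate 1 at 133.7%.

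Gja1 was set beside markers of astrocytes. All 8 markers had a mean of 10 or more, with the intermediate filament gene Gfap the highest at 52283 ± 6679 and the calcium-binding protein gene S100b the lowest at 68.7 ± 19.4. Over merged exons 5 of the 8 were higher than Gja1 and 2 were lower, beside 5.54% and 92.3% of all genes. Sox9, a glial transcription factor gene, was not called (limma, adjusted p = 0.728). With the exons of protein-coding transcripts 3 were higher and 4 lower, beside 2.13% and 96.7%. A level above Gja1 was not particular to astrocyte markers. Over merged exons 3 of 6 microglial, 1 of 5 ependymal and 1 of 5 tested meningeal and fibroblast markers were higher (limma). In the same order 3, 3 and 4 were lower. Over the exons of protein-coding transcripts 1, 1 and 0 were higher. No tested marker of the other cell types was higher. The astrocyte markers summed to 96540, 104524 and 83600 in replicates 1, 2 and 3, a sum that is mostly Gfap. Replicate 2 was the highest and replicate 3 the lowest for 5 of the 8, as for Gja1, but not for Aldh1l1, Aqp4 and Sox9. Markers of other cells were present too: all 6 microglial genes had a mean of 10 or more, by count from P2ry12, a purine receptor gene, at 308 ± 24.1 to Csf1r, a growth factor receptor gene, at 5517 ± 1362. In a mixed culture, fewer cells of a type and less RNA per cell cannot be told apart. Ependymal genes, 5 of 5 at a mean of 10 or more, ran from Tmem212 at 13.6 ± 10.1 to Foxj1 at 9966 ± 1517. Mural genes, 3 of 6, ran from Abcc9 at 0.586 ± 0.511 to Pdgfrb at 900.2 ± 99.2. Choroid plexus genes, 3 of 4, ran from Kl at 2.74 ± 1.99 to Folr1 at 382 ± 45.5. Replicate 2 stood apart in Ttr, the transthyretin gene of the choroid plexus, at 557 against 31.7 in replicate 1 and 13.2 in replicate 3, and the choroid plexus sum was 488, 916 and 411 in replicates 1, 2 and 3. Its part in the spread of the members was not tested.

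The genes of junction assembly were mostly abundant. All 10 genes of scaffolds and adherens junctions had a mean of 10 or more. Per kilobase of merged exon the highest were Ctnnb1, which encodes beta-catenin, at 3074 ± 274, Ctnna1, which encodes alpha-catenin, at 1499 ± 50.1, and Cdh2, which encodes N-cadherin, at 1102 ± 125. Against Gja1, 4 of the 10 were higher and 6 lower (limma), beside 5.54% and 92.3% of all genes, with a median log2 difference of -1.21 beside -3.53 over all genes tested. Over the exons of protein-coding transcripts 3 were higher and 7 lower, with a median of -2.43 beside -4.62. Tjp3, which encodes the epithelial ZO-3, had a log2 difference from Gja1 of -5.96 (adjusted p = 7.59e-09, limma) and a normalized count of 29.0 ± 3.55.

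Kinases that act on connexin 43 and factors of its turnover were all detected, 12 of 12, as were 13941 of all 19471 genes. The highest per kilobase of merged exon were the ubiquitin ligase gene Nedd4 at 1595 ± 91.4, the ERK1 gene Mapk3 at 885 ± 114 and the kinase gene Akt1 at 860.0 ± 50.4. Against Gja1, 4 were called higher and 7 lower (limma), beside 5.54% and 92.3% of all genes, with a median difference of -0.52 beside -3.53. Over the exons of protein-coding transcripts 1 was higher and 11 were lower, with a median of -1.75 beside -4.62.

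Other channels with large pores differed from Gja1 about as most genes did. A mean of 10 was reached by 8 of 10, and all 10 were called lower (limma), beside 92.3% of all genes. Their median difference was -3.85 beside -3.53 over all genes (-5.16 beside -4.62 over the exons of protein-coding transcripts). The highest per kilobase of merged exon were the volume-regulated anion channel subunit genes Lrrc8c at 157 ± 9.13 and Lrrc8b at 83.3 ± 9.65, and P2rx7, an ATP-gated channel gene, at 64.4 ± 10.5. All 3 lay above Panx1 and Panx2 in level per kilobase. Calhm1 was not analysed here.

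Genes of ATP release by vesicles and of ATP breakdown outside the cell covered a wide range. A mean of 10 was reached by 6 of 8, and the 7 tested were called lower than Gja1 (limma), beside 92.3% of all genes. Their median difference was -5.11 beside -3.53 over all genes (-5.93 beside -4.62 over the exons of protein-coding transcripts). The highest per kilobase of merged exon were the ectonucleotidase gene Entpd2 at 128 ± 20.3, the phosphatase gene Alpl at 46.5 ± 9.23 and the ectonucleotidase gene Entpd1 at 46.0 ± 2.45. Slc17a9, the vesicular nucleotide transporter gene, had a normalized count of 6.96 ± 3.83 from 28 reads.

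**Figure D4:**
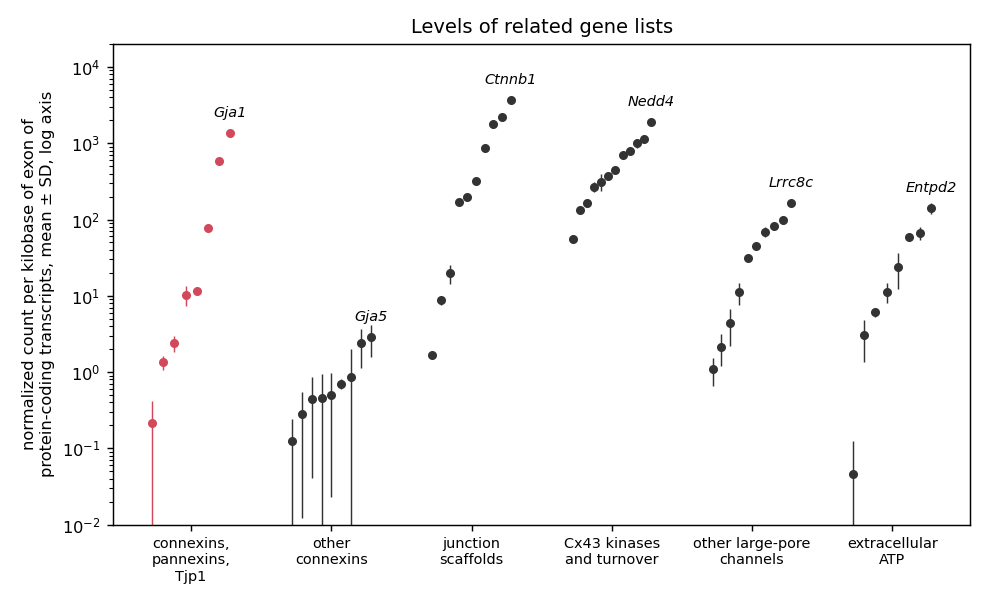
Normalized count per kilobase of exon of protein-coding transcripts, mean ± SD over 3 libraries on a log axis, for the members (red) and 5 related gene lists, each list sorted by level and its highest gene named. Gja1 leads the members at 1366, under Ctnnb1 and Nedd4 and above every gene of the channel and ATP lists.

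The CpG content of the upstream stretches did not follow the order of levels. RefSeq windows were found for 6 of the 8 members. Gja1 had 6 CpG in its 250 bases, an observed-to-expected ratio of 0.468, while Gjb2 had 18 and a ratio of 0.641 at a far lower level. Gjb6 had 5 (0.265), Gjc3 had 3 (0.204), Panx1 had 17 (0.767) and Tjp1 had 22 (0.890), beside a median ratio of 0.373 over 32851 windows. The window of Tjp1, chr7:65371245-65371494, lies inside the span given above for that gene, so it precedes an internal start and not the outermost one. The AP-1 motif TGAGTCA, searched on both strands, was found in the window of Gja1 and in none of the other 5, and 4.46% of all windows hold it. The GC box GGGCGG was found for Gjb2 and Tjp1, and 32.7% of all windows hold it. The motif TATAAA was in none of the 6 windows, and 12.4% of all windows hold it. A match describes the letters only.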

How the data were processed

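The authors deposited 1 table of normalized read counts (a signal per gene), which per the submitters' processing notes came from DESeq2 with build mm10. Libraries came from a stranded TruSeq mRNA kit, per the labels' protocols. For the aligner, the counter and its strand setting: not given in the sources used here. Each value was a whole multiple of 1 read, so whole reads were recovered for 100% of values within 0.05 reads. Depth, summed over the genes of the table, is 9858626 to 25128038 reads.

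Gene lengths came from GENCODE vM21 (mm10), which held 19366 of the 19471 identifiers. Values were log2-transformed after adding 1, which understates folds of low genes. Each gene with a mean of 1 or more was compared with Gja1 within libraries by an intercept-only limma 3.58.1 model with a trended prior, adjusted by Benjamini-Hochberg over 17808 genes. Their spread is pooled over genes, and every difference shares the same values of Gja1. Recovered reads were also tested with edgeR 4.0.16, which called 16429 genes lower and 1003 higher. Reads were compared between libraries by chi-square in SciPy 1.17.1, for genes with a mean of 10 and 30 reads. R 4.3.3 and Python 3.11.15 were used.

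On simulated data the chi-square test of 13941 genes was given changes in replicate 1 only, in 100 genes per fold. It called 85% at a 1.5-fold change, 99% at a 3-fold change and 0.189% of unchanged genes. The simulated reads held counting error only, with no spread between pups. In another simulation limma against Gja1, on 17695 genes, called 98% of true log2 differences of 0.5 and 2% of genes with none. Those genes lay within 3 log2 units of Gja1, with a common dispersion and known lengths. The rates therefore do not cover the low members, the choice of length or the spread between pups in the chi-square test.

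The members and lists were chosen with earlier results of these data known. Named are all members, other connexins (some are not reported here), the 3 highest genes per kilobase of each pathway list and the highest and lowest marker of each cell type; Tjp3, Slc17a9, Sox9, Aldh1l1, Aqp4 and Ttr were named after their values were seen. Patterns of likeness over 3 libraries were not ranked. Each library is 1 pup, so animal, culture and preparation cannot be told apart.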

Additional observations from a re-analysis of the deposited data

How the results depend on the processing

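The 5 members called lower than Gja1 kept their direction and call in 63 of 63 alternative values, and with only genes at a mean of 10 or more 3 members were left to be called. Gene length mattered most: Tjp1 against Gja1 went from 0.12 to -1.13 over the longest transcript, -1.25 over the exons of protein-coding transcripts and -0.27 with no division by length. The number of all genes above Gja1 went from 987 to 407, 379 and 224 in the same order. Gja1 lay 4.40 and 4.13 above Gjc1, and Gjc1 2.42 and 2.76 above Panx1, over the longest and the protein-coding transcripts. The share of Gja1 in connexin reads was 95.3%, and 90.1%, 94.5% and 93.8% when divided by merged exons, the longest and the protein-coding transcripts. Panx1 against Panx2 turned to -0.054 on CPM with TMM factors, and it ranged from -0.024 to 0.31 with 1 replicate left out. CPM values are smaller, so a pseudocount of 1 weighs more: Panx2 lay 0.88 above Gjb2, Gjb2 0.40 above Gjb6 and Gjb6 0.93 above Gjc3. With a pseudocount of 5 Panx2 lay 1.36 above Gjb2. Leaving out 1 replicate left 2 members past the chi-square test each time. Gjb2, Gjb6 and Gjc3 rest on 24, 12 and 4 reads, so depth limits any statement on them. No paired analysis was possible because there is only 1 group.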
